A study of Mus musculus with 10 samples.

Results

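Cxcl12, its receptors Cxcr4 and Ackr3, the neuregulins Nrg1, Nrg2 and Nrg3 and their receptor Erbb4 were followed through the cell classes of the embryonic mouse cortex. These 7 genes, of 31053 in the deposited matrices, were chosen by name as the ligands and receptors of interneuron migration. Droplet libraries of the 10X Genomics 3′ kit, version 3, came from dissected cortex of mouse embryos at E16.5, 1 library per embryo. There were 3 WT embryos, 4 heterozygotes for the Gatad2b stop allele (Gatad2b stop/+, Het) and 3 homozygotes (Gatad2b stop/stop, KO). The allele is Gatad2b tm1a(EUCOMM)Hmgu, a trap cassette in the intron between the first and second coding exons, on a C57BL/6N-A tm1Brd background, so that every group shared that background and no group carried a Cre. The loss was constitutive and in every cell, and the exons stay in the locus, so UMIs counted at the 3′ end of the gene need not vanish in KO. Gatad2b encodes a subunit of the NuRD complex, which joins histone deacetylation and nucleosome remodeling.

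Inhibitory interneurons are born in the ganglionic eminences and reach the cortex by tangential migration. CXCL12 attracts them and holds them in the migratory streams. CXCR4 is the receptor that signals through G proteins, while ACKR3 binds the same ligand, recruits arrestins and takes it up from the surroundings. The meninges, Cajal-Retzius cells and intermediate progenitors are known sources of CXCL12 in the developing cortex. Neuregulins are ligands with an EGF-like domain, made as membrane-bound or secreted forms. NRG1 and NRG3 act on ERBB4, a receptor tyrosine kinase that interneurons carry and that guides them into and within the cortex.

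The matrices held 80071 cell barcodes, of which 65779 reached 1000 UMIs with no more than 10% of them mitochondrial. From 82872641 to 123737385 UMIs were kept per embryo. Clustering without the 7 genes gave 27 clusters. Of these, 6 stayed unnamed and the others fell into 14 classes by their markers. Striatal inhibitory neurons were 8.97% to 13.3% of cells by embryo and progenitors of the ganglionic eminences 1.73% to 4.29%. The libraries were thus not of cortex alone. Libraries shared 4 to 19 barcodes in pairs. Gatad2b itself was highest in WT at 142, 132 and 138 UMIs per 1000000 UMIs (CPM) over all cells. Het embryos had 93.1, 88.1, 89.3 and 96.6 CPM and KO embryos 49.5, 51.8 and 58.2 CPM, so the 3 groups did not overlap and each library matched its label. Library names carried 1 of 2 prefixes. GA429 stood for the 3 WT embryos and Het embryo 4, and GA422 for Het embryos 1 to 3 and all KO embryos. Genotype and prefix therefore cannot be told apart in KO against WT, and KO was also compared with Het within GA422. The study describes the WT and Het embryos as littermates, but the labels do not say which embryos shared a litter, and p-values measure the spread between embryos.

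Cxcl12 lies at chr6:117168535-117181367 on the plus strand of GRCm38, Cxcr4 at chr1:128588199-128592293 on the minus strand and Ackr3 at chr1:90203980-90216751 on the plus strand. None of the 3 overlaps another gene in GENCODE vM21. The promoters of Cxcl12 and its 2 receptors are shown as the ligand and receptors whose levels are followed below, with CG dinucleotides in capitals. Each window runs from 250 bases before to 50 bases after the start of the gene (RefSeq, GRCm38.p6), on the strand of the gene.
Cxcl12: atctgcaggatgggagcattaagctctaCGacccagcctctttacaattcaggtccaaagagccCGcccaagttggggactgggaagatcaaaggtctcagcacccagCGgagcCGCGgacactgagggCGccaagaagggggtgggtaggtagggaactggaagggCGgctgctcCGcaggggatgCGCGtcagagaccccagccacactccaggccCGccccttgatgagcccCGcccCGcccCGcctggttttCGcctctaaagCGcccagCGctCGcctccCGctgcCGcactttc
Cxcr4: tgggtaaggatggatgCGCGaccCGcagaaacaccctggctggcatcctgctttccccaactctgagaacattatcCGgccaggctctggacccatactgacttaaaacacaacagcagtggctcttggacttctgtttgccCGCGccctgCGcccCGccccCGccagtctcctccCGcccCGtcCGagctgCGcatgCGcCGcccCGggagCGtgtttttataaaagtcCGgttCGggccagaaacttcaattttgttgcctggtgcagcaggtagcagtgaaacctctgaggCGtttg
Ackr3: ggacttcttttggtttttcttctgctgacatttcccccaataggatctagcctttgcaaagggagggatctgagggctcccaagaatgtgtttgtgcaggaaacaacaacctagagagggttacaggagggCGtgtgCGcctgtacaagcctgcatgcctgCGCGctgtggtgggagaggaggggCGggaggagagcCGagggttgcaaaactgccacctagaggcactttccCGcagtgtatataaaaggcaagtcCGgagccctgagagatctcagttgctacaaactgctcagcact
The windows are chr6:117168285-117168584 for Cxcl12, chr1:128592250-128592549 for Cxcr4 and chr1:90203730-90204029 for Ackr3. Cxcl12 and Cxcr4 had 20 CG dinucleotides each and Ackr3 had 8. Of 32851 windows of the same length, 26.5% held at least 20 and 48.6% at least 8. The median was 7, so Ackr3 was near it and the other 2 above it. CG is its own reverse complement, so 1 strand counts both.

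Cajal-Retzius neurons and vascular clusters carried both Cxcl12 and Cxcr4, while interneurons carried Cxcr4 with little Cxcl12. In the 3 WT embryos Cajal-Retzius neurons, the reelin-secreting cells of the marginal zone, had 373, 336 and 428 CPM of Cxcl12 (379 ± 46.3, SD, n = 3). They were 1.26% of cells and held 41.8% of its UMIs. Intermediate progenitors, which divide to give excitatory neurons, had 64.7, 40.8 and 50.6 CPM. Migrating excitatory neurons had 21.5, 17.9 and 24.9 CPM and layer V-VI neurons 5.39, 6.203 and 5.11 CPM. Among these 4 classes, each level was above that of the next in every WT embryo. Interneurons had little of the ligand, 1.76 ± 0.38 CPM in those derived from the medial ganglionic eminence (MGE) and 1.51 ± 1.36 CPM in those from the caudal ganglionic eminence (CGE). Erythroid cells, which serve as a class that should lack the gene, had 0.905 CPM and a Cxcl12 UMI in 0.781% of cells, at a median of 8382.5 UMIs per cell. Cajal-Retzius neurons had one in 67.3% of cells at 20328 UMIs, and 37.0% against 0% after both were thinned to 2000 UMIs. No cluster was named meningeal, so meningeal cells were not measured as a class.

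Vascular cells also carried Cxcl12, and their classes were the least secure. The cluster named endothelial held 602 cells, 342 of them from Het embryo 3. Without integration across embryos, 322 of the 602 formed a separate cluster led by S100a8 and S100a9, genes of neutrophils. The cluster named mural also held endothelial markers at 3981 to 5531 CPM. Its score on the meningeal fibroblast list (4.30) was as high as on the mural list (4.25), and the 7 meningeal markers summed to 477 to 745 CPM in WT, 439 to 1202 CPM in Het and 479.6 to 2830 CPM in KO there. Their part in its Cxcl12 and Cxcr4 was not tested. In the clustering without integration, 365 endothelial cells had 224 CPM of Cxcl12 and 194 mural cells 74.9 CPM. These endothelial cells had 264, 318 and 293 CPM in WT. Het embryos had 125, 63.0, 330 and 350 CPM, and KO embryos had 295, 5.83 and 59.5 CPM. The low value of KO embryo 2 rested on 5 UMIs. The ranges overlapped, and neither mutant group differed from WT past the threshold (log2 fold change −1.10, adjusted p = 0.542 for KO, and −0.37, adjusted p = 0.906 for Het, edgeR's quasi-likelihood test with Benjamini-Hochberg adjustment over 9511 genes). Leaving out embryos did not give a call for either gene of the pair in those cells.

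**Figure D1:**
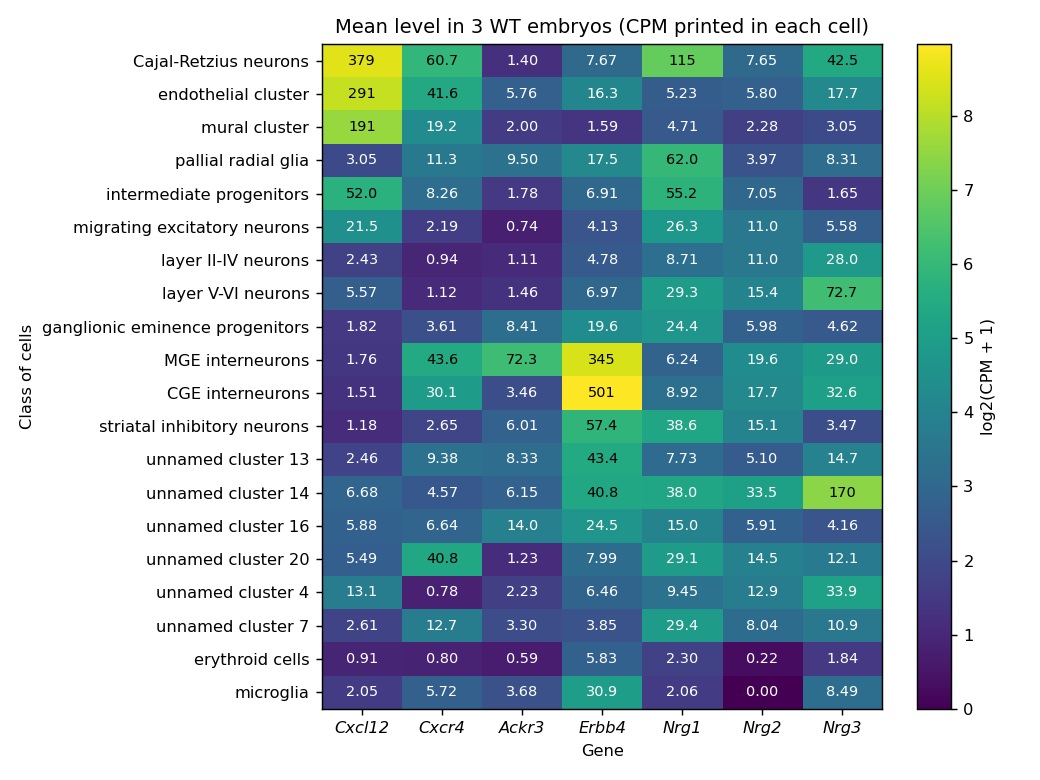
Mean levels of the 7 genes (columns) in the named classes and unnamed clusters (rows) over the 3 WT embryos, in CPM in each cell of the map and as log2(CPM + 1) in color. Cxcl12 reads 379 in Cajal-Retzius neurons, Ackr3 reads 72.3 in MGE interneurons, and Erbb4 reads 345 and 501 in MGE and CGE interneurons.

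Cxcr4 was found in Cajal-Retzius neurons, both interneuron classes and vascular cells. Cajal-Retzius neurons had 60.7 ± 10.0 CPM in WT, MGE interneurons 43.6 ± 3.67 and CGE interneurons 30.1 ± 5.04 (SD, n = 3). MGE interneurons were many more and held 38.3% of Cxcr4 UMIs. The level was higher in MGE than in CGE interneurons of the same embryo in 10 of 10 embryos, by 1.12 to 1.77 times. Radial glia had 11.3 CPM, intermediate progenitors 8.26 CPM and layer II-IV neurons 0.945 CPM. Erythroid cells had 0.804 CPM, near the layer II-IV level. Layer II-IV cells had more UMIs than erythroid cells (medians of 17414.5 and 8718.5 in WT embryo 1), and whether their level is background was not tested. An unnamed cluster led by Tesc, Tac2 and Prox1 had 40.8 CPM of Cxcr4 in WT.

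Ackr3 was largely a gene of MGE interneurons. They had 86.6, 63.1 and 67.1 CPM in WT and held 70.1% of its UMIs. CGE interneurons had 4.89, 3.12 and 2.36 CPM. The MGE level was above the CGE level in 10 of 10 embryos, by 11.3 to 35.6 times. Among named classes, radial glia followed with 9.505 CPM and progenitors of the ganglionic eminences with 8.41 CPM. The WT ranges of these 2 classes overlapped, while MGE interneurons stood above both in every WT embryo. Excitatory neurons of layers II-IV had 1.11 CPM and Cajal-Retzius neurons 1.397 CPM, beside 0.591 CPM in erythroid cells. Unnamed cluster 16 had 17.1, 15.7 and 9.21 CPM in WT.

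Erbb4 spans chr1:68032186-69108059 on the minus strand and holds 8 genes of its own strand, with which reads could be shared. It was an interneuron gene, and its order over the 2 interneuron classes was the reverse of that of Ackr3. CGE interneurons had 467, 498 and 538 CPM and MGE interneurons 370, 308 and 358 CPM. The MGE level was below the CGE level in 10 of 10 embryos. Both classes together held most of the UMIs, 59.5% in MGE and 19.3% in CGE interneurons. Striatal inhibitory neurons had 57.4 ± 3.81 CPM. In the excitatory classes Erbb4 was at 4.13 to 6.97 CPM. Erythroid cells had a mean of 5.83 CPM, with 3.99, 3.30 and 10.2 CPM by WT embryo. Whether the level in excitatory classes is background was not tested.

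Within the MGE class the receptors were not even. The larger of its clusters (cluster 1) had 60.5 CPM of Cxcr4, 98.1 CPM of Ackr3 and 450 CPM of Erbb4 in WT. A cluster led by Sst, Npy and Tac1, genes of neuropeptides, had 2.48, 10.3 and 99.8 CPM of the same 3 genes. All 3 receptors were thus lower in the neuropeptide cluster in the mean of the WT embryos. The clusters were made from the same cells, without these genes, and the difference is given without a test.

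UMIs of more than 1 receptor were counted in the same cells. In erythroid cells of WT, at a median of 8382.5 UMIs per cell, 0.643% had a UMI of Cxcr4, 0.491% of Ackr3 and 3.35% of Erbb4, beside 26.9%, 42.4% and 80.2% of MGE interneurons at 7477.5 UMIs. Of MGE interneurons, a median of 18.2% over the 10 embryos had UMIs of both Cxcr4 and Ackr3, 13.1% of Cxcr4 alone and 30.7% of Ackr3 alone. After thinning to 2000 UMIs per cell the share with both was 2.76% (1.33% to 4.61%), beside 1.98% (1.45% to 3.16%) if the 2 were met independently. Both shares come from the same cells of each embryo, so their ranges over embryos do not compare them. The difference within embryos was not tested. Ackr3 and Erbb4 were found together in 46.4% of MGE interneurons and Cxcr4 and Erbb4 in 27.5%. After thinning these were 11.01%, beside 10.2% if independent, and 7.27%, beside 6.33%. The class pools cells of clusters whose receptor levels differed, and the part of that in the shares was not tested. In CGE interneurons Cxcr4 and Erbb4 were found together in 19.8% of cells and Cxcr4 with Ackr3 in 0.466%, and after thinning in 4.57%, beside 3.94% if independent, and 0%, beside 0.0682%. Thinning left out 9.01% of WT, 3.90% of Het and 3.01% of KO cells. The smallest adjusted p of a difference between genotypes was 0.274 (two-sided exact permutation tests, 12 in a family). The smallest p the design allows is 0.0286 for Het against WT and 0.1 for KO against WT, which after adjustment could not pass in either, so these tests say nothing about a difference.

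Nrg1 lies at chr8:31814551-32884029, Nrg2 at chr18:36017652-36197380 and Nrg3 at chr14:38368952-39473088, all on the minus strand. The 3 genes had 3 different patterns. Nrg1 was highest in Cajal-Retzius neurons, at 129, 110 and 106 CPM in WT. The cluster named radial glia, which scored higher on the glial progenitor list (3.735) than on that of radial glia (2.585), had 62.0 ± 9.56 CPM, and intermediate progenitors 55.2 ± 3.70 CPM, which overlapped. Striatal inhibitory neurons followed with 38.6 CPM and layer V-VI neurons with 29.3 CPM, while layer II-IV neurons had 8.71 CPM and MGE interneurons 6.24 CPM. Among named classes, Nrg3 was highest in layer V-VI neurons, at 76.3, 70.6 and 71.2 CPM. Cajal-Retzius neurons had 42.5 CPM of Nrg3, CGE interneurons 32.6, MGE interneurons 29.0 and layer II-IV neurons 28.0 CPM, and neighbours in this order overlapped. Layer V-VI was above layer II-IV in 10 of 10 embryos, by 2.25 to 3.19 times. Among named classes Nrg2 was at 19.6 ± 3.65 CPM in MGE and 17.7 ± 0.57 CPM in CGE interneurons, 15.4 CPM in layer V-VI and 10.98 CPM in layer II-IV neurons. It was lower in Cajal-Retzius neurons (7.65 CPM), intermediate progenitors (7.05 CPM), progenitors of the ganglionic eminences (5.98 CPM) and radial glia (3.97 CPM). Unnamed cluster 14 had 30.0, 36.9 and 33.5 CPM of Nrg2 in WT. Erythroid cells had 2.30 CPM of Nrg1, 0.222 CPM of Nrg2 and 1.84 CPM of Nrg3. Levels of different genes are not compared, since UMIs are counted at 3′ ends only.

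The genes most like each member over the 14 classes were named by Pearson's r of log2(CPM + 1) of WT means, among 10259 genes. Ackr3 was most like Nxph1 (r = 0.94), which is itself a marker used to name the MGE class, Tox2 (r = 0.89) and Nkx2-1 (r = 0.87), the transcription factor of that eminence. Erbb4 was like Slc32a1 (r = 0.92), which encodes the vesicular GABA transporter, Neb (r = 0.93) and C130073E24Rik (r = 0.96). Nrg3 was like Scn2a (r = 0.92), a voltage-gated sodium channel gene, Gpr22 (r = 0.93) and Rab3b (r = 0.92). Cxcl12 was like Unc5b (r = 0.87), a netrin receptor gene of vessels, Inf2 (r = 0.88) and Palmd (r = 0.86). Cxcr4 was most like Rbms3 (r = 0.84), Plcb4 (r = 0.83) and Rcan3 (r = 0.82), Nrg1 most like Irs1 (r = 0.85), Col11a1 (r = 0.85) and Gfra1 (r = 0.83), and Nrg2 most like Pdp1 (r = 0.98), Rfesd (r = 0.98) and Prpf40b (r = 0.95). The points are classes of the same 3 libraries, and r describes their order only.

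Summed over all cells, no member was called in Het or in KO against WT. A call needed an adjusted p under 0.05 and a log2 fold change above 0.25 in size. An unadjusted p under 0.05 was found for 2 members in Het and 2 in KO, and DESeq2's Wald test called 0 in both. With the prefix as a covariate, Cxcr4 (−0.72, adjusted p = 0.0292) and Cxcl12 (−0.90, adjusted p = 0.0306) were called lower in KO. Nrg3 was called lower in KO with at most 5% mitochondrial UMIs (−0.34, adjusted p = 0.00449), without WT embryo 3 (−0.31, 0.00557) or without KO embryo 3 (−0.25, 0.0396). The background was 2.98% of 17647 genes called in Het and 24.5% in KO. Nrg3 was at 29.3, 29.2 and 25.2 CPM in WT and at 22.7, 22.4 and 24.2 CPM in KO, a change of −0.23 (adjusted p = 0.0228) under the size required. It passed without WT embryo 3 (−0.31, adjusted p = 0.00557) or KO embryo 3 (−0.25, 0.0396). Cxcr4 passed in Het without Het embryo 4 (0.53, adjusted p = 0.00470), where genotype and prefix again cannot be told apart. Within GA422, where 6.14% of genes were called in KO against Het, Cxcr4 and Cxcl12 passed. Cxcr4 was at 10.9, 13.9 and 12.8 CPM in Het embryos 1 to 3 and at 7.89, 8.51 and 8.95 CPM in KO (log2 fold change −0.57 ± 0.09, SE, adjusted p = 0.00509). WT embryos had 7.88, 9.496 and 9.58 CPM and Het embryo 4 had 8.03 CPM, so it was Het embryos 1 to 3 that stood above all others. Cxcl12 fell by 0.46 (adjusted p = 0.0384), and the call was lost without Het embryo 2 (−0.46, adjusted p = 0.109), Het embryo 3 (−0.40, 0.136) or KO embryo 3 (−0.50, 0.0838). In sums over all cells, fewer cells of a type and less RNA per cell cannot be told apart. Cajal-Retzius neurons were 1.26% of WT, 1.39% of Het and 1.02% of KO cells.

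Within classes, 15 of 65 tests of a member in a class were called in KO against WT, 4 higher and 11 lower, which is 23.1% beside 14.3% of all gene tests in these 13 classes. In Het against WT 1 of 65 was called (1.54%), beside 1.62%, and 13 had an unadjusted p under 0.05. In KO against Het within GA422, 5 of 61 were called (8.20%), beside 3.82%. Of the 91 pairs of gene and class, 26 had too few counts to test against WT and 30 in KO against Het, and endothelial cells fell to 11 cells in 1 embryo and were not tested. Excitatory and Cajal-Retzius neurons and their precursors held 13 of the 15 calls in KO, CGE interneurons 1, the mural cluster 1 and MGE interneurons none. Of all genes, 29.2% were called in layer II-IV, 24.4% in layer V-VI and 23.0% in migrating excitatory neurons. The shares were 18.2% in intermediate progenitors, 6.92% in CGE interneurons, 5.36% in Cajal-Retzius neurons and 0.286% in the mural cluster. Such a share is not given here for classes without a call, MGE interneurons included. The split by class is therefore not read as a result about the members.

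Cxcl12 moved in opposite directions in Cajal-Retzius neurons and in layer V-VI neurons of KO embryos. In Cajal-Retzius neurons it was at 373, 336 and 428 CPM in WT, at 310, 383, 385 and 214 CPM in Het, and at 188, 133 and 196 CPM in KO. The KO embryos lay below all others. The log2 fold change was −1.09 ± 0.17 (SE) against WT (adjusted p = 0.000389) and −1.04 ± 0.12 against Het within GA422 (adjusted p = 0.000217). In Het it was −0.21 (adjusted p = 0.681). Of all genes, 5.36% were called in this class in KO against WT and 1.11% in KO against Het. The fall was called in all 21 alternatives of the first and all 15 of the second, from −1.85 to −0.94 and from −1.13 to −0.89. The 9 markers of the class summed to 7938 to 8435 CPM in WT, 7971 to 8552 CPM in Het and 6798 to 7620 CPM in KO, and 48 to 112 cells stood behind each embryo. The part of this smaller fall in the markers was not tested.

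In layer V-VI neurons, the corticofugal neurons of the deep layers, Cxcl12 was at 5.39, 6.203 and 5.11 CPM in WT, at 4.24, 5.57, 6.22 and 6.79 CPM in Het, and at 11.2, 13.2 and 15.5 CPM in KO. The KO embryos lay above all others. Its log2 fold change was 1.29 ± 0.16 against WT (adjusted p = 2.98e-05) and 1.34 ± 0.15 against Het within GA422 (adjusted p = 0.000103), called in all 21 and all 15 alternatives. Calls made up 24.4% of genes in this class in KO against WT and 10.3% in KO against Het. Both clusters of the class were higher in KO, 16.3 against 5.65 CPM in cluster 5 and 10.7 against 5.49 CPM in cluster 6. Intermediate progenitor markers summed to 64.96 to 77.03 CPM in WT and 117 to 150 CPM in KO within this class, and Cajal-Retzius markers to 41.7 to 46.4 CPM and 36.6 to 58.9 CPM. Cluster 5 scored 1.91 on the layer V-VI list and 1.63 on the subplate list. Subplate markers were lower in KO in this class, as given below with Nrg1. The part of these 3 sets of markers was not tested. The difference between the 2 classes was also fitted in the same embryos, with the pair chosen after the data were seen. The KO change was higher by 2.38 ± 0.23 in layer V-VI than in Cajal-Retzius neurons (adjusted p = 4.69e-07). This fit uses the same counts as the calls and is not separate support. Intermediate progenitors (54.1, 59.4 and 60.5 CPM in KO) and migrating excitatory neurons (17.4, 15.6 and 21.3 CPM in KO) had values in the WT range or near it, with log2 fold changes of 0.21 (adjusted p = 0.452) and −0.18 (adjusted p = 0.328).

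**Figure D2:**
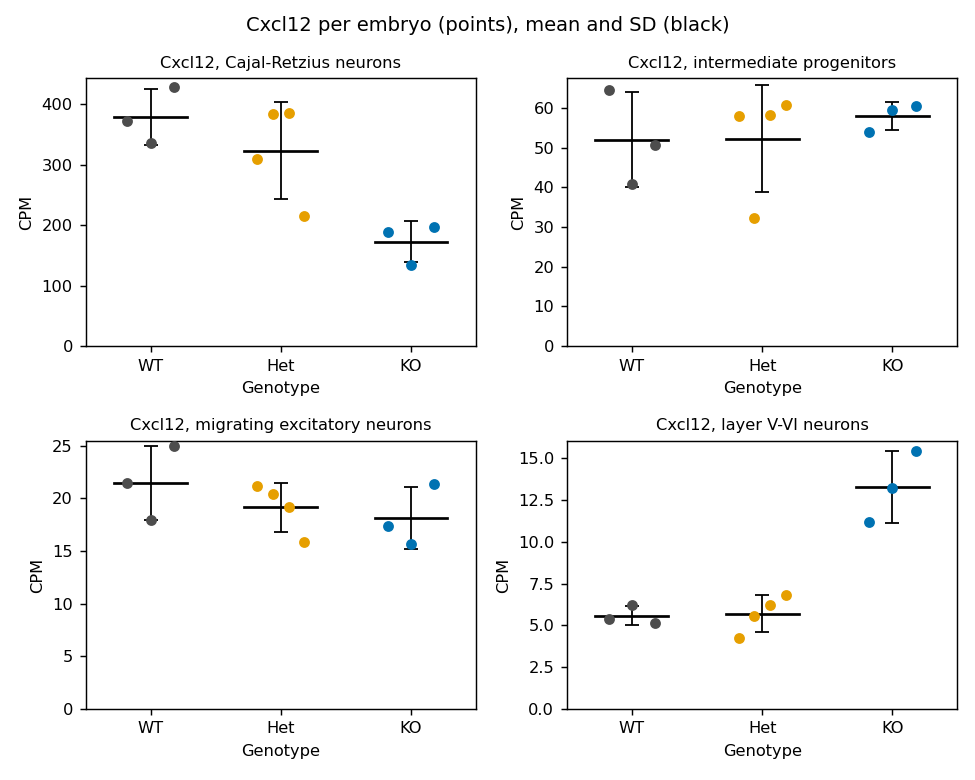
Cxcl12 (CPM, axes from 0) in 4 classes of cells by genotype. Points are embryos, and the black line and bars are the mean and SD. KO embryos lie below the others in Cajal-Retzius neurons (133 to 196 CPM) and above them in layer V-VI neurons (11.2 to 15.5 CPM).

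Cxcr4 was higher in Cajal-Retzius neurons of KO than of WT embryos, but it followed the library prefix. It was at 71.7, 58.5 and 51.9 CPM in WT, at 93.8, 89.2, 121 and 62.3 CPM in Het, and at 103, 92.9 and 87.6 CPM in KO. The log2 fold change in KO was 0.68 ± 0.17 (adjusted p = 0.0224), and in Het it was 0.62 ± 0.16 (adjusted p = 0.132). All 4 embryos of prefix GA429, Het embryo 4 included, lay below all 6 of GA422. KO and Het within GA422 differed by −0.08 (adjusted p = 0.880), and with the prefix as a covariate KO differed from WT by −0.022 (adjusted p = 0.986). The call was also lost without WT embryo 2 (0.65, adjusted p = 0.0759), WT embryo 3 (0.57, 0.133), KO embryo 1 (0.58, 0.0970) or KO embryo 2 (0.70, 0.0534).

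In the mural cluster all Het and KO embryos were above the WT range, Het embryo 4 included. Cxcr4 was at 21.9, 19.4 and 16.46 CPM in WT, 36.0 CPM in Het embryo 4, 52.4, 56.6 and 43.9 CPM in Het embryos 1 to 3, and 42.6, 52.2 and 36.9 CPM in KO. KO was higher than WT by 1.24 ± 0.22 (adjusted p = 0.0412), where 0.286% of genes were called, and Het by 1.31 ± 0.21 (adjusted p = 0.0843). Within GA422 the 2 did not differ past the threshold (−0.16, adjusted p = 1). The call fell away with the prefix as a covariate (0.75, adjusted p = 0.955) and without any 1 of 8 embryos, namely WT embryos 1 (1.37, adjusted p = 0.0766), 2 (1.24, 0.164) and 3 (1.14, 0.153), Het embryos 2 (1.24, 0.0554) and 3 (1.24, 0.0506), and KO embryos 1 (1.24, 0.124), 2 (1.13, 0.142) and 3 (1.35, 0.0545). From 16 to 63 UMIs stood behind each value.

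In intermediate progenitors Cxcr4 fell. It was at 6.11, 7.06 and 11.6 CPM in WT, at 7.30, 10.2, 4.93 and 5.78 CPM in Het, and at 3.15, 3.88 and 3.65 CPM in KO. The KO embryos lay below all others, on 21 to 27 UMIs each. Its log2 fold change was −1.15 ± 0.30 against WT (adjusted p = 0.0121), where 18.2% of genes were called. Without WT embryo 3 it was −0.85 (adjusted p = 0.0765), and with the prefix as a covariate −1.52 (adjusted p = 0.0929), so that the call was lost in both. Against Het within GA422 it was −1.06 ± 0.26 (adjusted p = 0.0424), where 2.92% of genes were called. That call was lost without Het embryo 1 (−1.09, adjusted p = 0.108) or 2 (−0.81, 0.193) and without KO embryo 1 (−0.98, 0.118), 2 (−1.12, 0.113) or 3 (−1.08, 0.149). The KO change was lower in intermediate progenitors than in Cajal-Retzius neurons by 1.81 ± 0.34 (difference −1.81, adjusted p = 0.00294). The pair was chosen after the data were seen. Its Cajal-Retzius change followed the prefix, as given above, and the fit had no prefix term.

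Other calls on receptors were in excitatory neurons at low levels. In layer II-IV neurons Cxcr4 was at 1.04, 0.955 and 0.841 CPM in WT and at 0.294, 0.551 and 0.441 CPM in KO (−1.13, adjusted p = 0.00791). Erbb4 was at 4.19, 4.87 and 5.27 CPM in WT and at 2.06, 1.00 and 3.38 CPM in KO (−1.11, adjusted p = 0.0116). The latter call was lost without KO embryo 2 (−0.79, adjusted p = 0.0599). With the prefix as a covariate both calls were lost (Cxcr4 −0.99, adjusted p = 0.256, and Erbb4 −1.09, adjusted p = 0.213). Calls made up 29.2% of genes in this class. In layer V-VI neurons Erbb4 was at 5.28, 7.23 and 8.39 CPM in WT and at 3.89, 2.56 and 5.16 CPM in KO (−0.76, adjusted p = 0.0304). It lost its call without WT embryo 2 (−0.71, adjusted p = 0.0912) or 3 (−0.63, 0.109), without KO embryo 1 (−0.78, 0.0754) or 2 (−0.56, 0.121), and with the prefix as a covariate (−0.90, 0.240). In migrating excitatory neurons, where 23.0% of genes were called, Cxcr4 was at 2.38, 3.51 and 0.674 CPM in WT and at 0.451, 0.646 and 0.446 CPM in KO (−2.02, adjusted p = 0.00938), and the call was lost without WT embryo 2 (−1.57, adjusted p = 0.0639) and with the prefix as a covariate (−2.42, adjusted p = 0.155). Over all 10 embryos this class held 97 UMIs of Cxcr4, and the 2 clusters of layer II-IV neurons held 142 and 26.

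Erythroid cells of the same WT embryos had 0.666, 0.471 and 1.28 CPM of Cxcr4 and 3.99, 3.30 and 10.2 CPM of Erbb4, and those of KO embryos had 0 CPM of Cxcr4 and 0, 3.04 and 0.881 CPM of Erbb4. In WT embryos 1 and 2 the Cxcr4 level of migrating excitatory neurons was above that of erythroid cells, and in WT embryo 3 below it. The sum of the 8 MGE interneuron markers went from 136 to 173 CPM in WT to 43.9 to 53.8 CPM in KO in layer II-IV neurons, from 363 to 421 CPM to 189 to 217 CPM in layer V-VI neurons, and from 47.1 to 80.3 CPM to 11.6 to 30.8 CPM in erythroid cells. In migrating excitatory neurons the sums were 150 to 168 CPM and 135 to 147 CPM. The part of interneuron RNA in these low receptor values was not tested.

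In the interneurons themselves no receptor was called in either genotype, other than in the alternatives named below and, in MGE interneurons, with a replicate block. In MGE interneurons Cxcr4 was at 43.2, 40.2 and 47.5 CPM in WT, at 61.6, 63.7, 66.4 and 38.3 CPM in Het, and at 56.2, 51.7 and 42.4 CPM in KO. Het embryos 1 to 3 stood above all others, and Het embryo 4, of the prefix of WT, below all others. The log2 fold change was 0.42 ± 0.17 in Het (adjusted p = 0.413) and 0.21 ± 0.19 in KO (adjusted p = 0.531). Without Het embryo 4, which leaves Het and WT with different prefixes, it was 0.58 in Het (adjusted p = 0.0394). Ackr3 was at 86.6, 63.1 and 67.1 CPM in WT, at 111, 92.3, 92.9 and 61.4 CPM in Het, and at 94.2, 101 and 86.9 CPM in KO. Every KO value was above the WT range, but the lowest (86.9 CPM) was close to WT embryo 1 (86.6 CPM). The log2 fold change was 0.39 ± 0.19 (adjusted p = 0.227). Erbb4 was at 370, 308 and 358 CPM in WT, at 452, 392, 396 and 326 CPM in Het, and at 442, 427 and 420 CPM in KO. Here too every KO embryo was above every WT embryo (0.33 ± 0.11, adjusted p = 0.1). It passed without Het embryo 4 (0.33, adjusted p = 0.0405) and with only WT and KO in the fit (0.34, adjusted p = 0.0391), and KO and Het within GA422 differed by 0.04 (adjusted p = 0.956). For both Ackr3 and Erbb4, the 4 embryos of prefix GA429, Het embryo 4 included, lay below the 6 of GA422. Genotype and prefix cannot be told apart in these KO and WT values. The class also pools clusters whose receptor levels differed, as given above, and the part of their mix in these values was not tested. In cluster 1 alone the Erbb4 means were 450 ± 8.21 CPM in WT, 498 ± 19.3 in Het and 566 ± 15.7 in KO, which was not tested.

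CGE interneurons had Erbb4 at 467, 498 and 538 CPM in WT, at 501, 518, 572 and 389 CPM in Het, and at 455, 458 and 473 CPM in KO, which overlapped (−0.09 ± 0.10 in KO, adjusted p = 0.657). With the prefix as a covariate it was called lower in KO (−0.55, adjusted p = 0.0213), and within GA422 KO against Het was −0.19 (adjusted p = 0.2797). The KO change in Erbb4 was lower in CGE than in MGE interneurons by 0.41 (difference −0.41 ± 0.10), which did not pass (adjusted p = 0.0811). Cxcr4 was at 27.5, 35.9 and 26.9 CPM in WT and at 43.7, 44.8 and 28.3 CPM in KO, with 1 KO embryo inside the WT range (0.39 ± 0.21, adjusted p = 0.273). In Het it was at 47.7, 38.9, 50.4 and 28.6 CPM (0.45 ± 0.19, adjusted p = 0.359), and without Het embryo 4 the change was 0.62 (adjusted p = 0.0481). MGE interneurons were 12.1% of cells in WT, 12.1% in Het and 10.98% in KO, and CGE interneurons 3.65%, 3.69% and 3.66%. These shares leave out the unnamed clusters. Cluster 13, one of these, ranged over 3.28% to 3.65% of cells among WT embryos, 1.71% to 3.97% among Het and 0.887% to 3.14% among KO. Whether it holds interneurons was not tested. With its own clusters, the paper reports smaller shares for some interneuron clusters of both mutants and no significant difference for others.

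**Figure D3:**
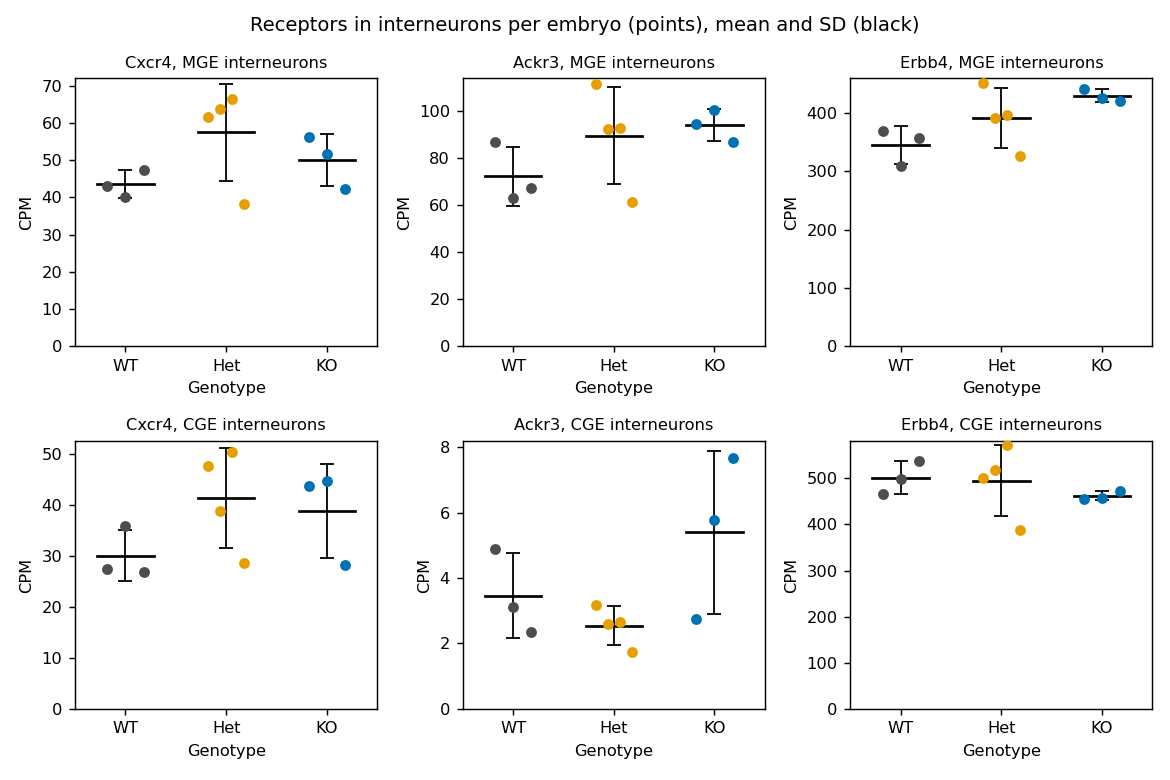
Cxcr4, Ackr3 and Erbb4 (CPM, axes from 0) in MGE (top) and CGE (bottom) interneurons by genotype. Points are embryos, and the black line and bars are the mean and SD. Het embryo 4 is the lowest Het point for all 3 genes in MGE interneurons, and Ackr3 is at 1.73 to 7.66 CPM in CGE interneurons.

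Among the ligands of ERBB4, Nrg1 fell in Cajal-Retzius and layer II-IV neurons and rose in layer V-VI neurons. In layer II-IV neurons, which send and receive connections within the cortex, it was at 8.66, 8.44 and 9.02 CPM in WT, at 4.99, 4.64, 6.60 and 6.99 CPM in Het, and at 4.03, 3.70 and 4.46 CPM in KO. The 3 groups did not overlap, and Het lay between WT and KO. Its log2 fold change was −1.06 ± 0.14 in KO (adjusted p = 3.98e-05), called in all 21 alternatives. In Het it was −0.55 ± 0.12 (adjusted p = 0.0161), the only call of a member in Het, where 5.72% of genes were called in this class. That call was lost with the prefix as a covariate (−0.29, adjusted p = 0.512) and without WT embryo 1 (−0.55, 0.0520), WT embryo 3 (−0.52, 0.0794) or Het embryo 1 (−0.48, 0.0592). KO and Het within GA422 differed by −0.40 (adjusted p = 0.0929). Erythroid cells had 1.997 to 2.55 CPM of Nrg1 in WT and 0 to 0.881 CPM in KO.

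In layer V-VI neurons Nrg1 was at 31.5, 26.5 and 29.9 CPM in WT, at 32.4, 28.1, 32.5 and 34.7 CPM in Het, and at 32.8, 35.7 and 40.1 CPM in KO. KO lay above WT, with a log2 fold change of 0.36 ± 0.08 (adjusted p = 0.00398). Within GA422 it was 0.25 ± 0.07 (adjusted p = 0.0443), just under the size required, and without KO embryo 1 it passed (0.30, adjusted p = 0.0189). The 2 clusters of the class differed in direction. Cluster 5 went from 22.1 ± 1.86 CPM in WT to 42.03 ± 4.06 CPM in KO, and cluster 6 from 35.2 ± 3.92 to 31.0 ± 3.44 CPM. With other clusterings the change was 0.19 (no integration, adjusted p = 0.0821) and 0.25 (resolution 0.8, adjusted p = 0.0767). Markers of layers V-VI summed to 2066 to 2146 CPM in WT and 2673 to 2820 CPM in KO in this class, and subplate markers to 181 to 253 CPM and 84.5 to 88.9 CPM, and their part was not tested. The change in layer V-VI was higher than in layer II-IV neurons by 1.41 ± 0.12 in KO (adjusted p = 4.62e-08) and by 0.70 ± 0.10 in Het (adjusted p = 0.00114). This pair of classes was also chosen after the data were seen.

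In Cajal-Retzius neurons Nrg1 was at 129, 110 and 106 CPM in WT, at 118, 112, 122 and 103 CPM in Het, and at 77.4, 84.3 and 82.4 CPM in KO. The KO embryos lay below all others. The log2 fold change was −0.47 ± 0.10 against WT (adjusted p = 0.00979) and −0.52 ± 0.09 against Het within GA422 (adjusted p = 0.00872). The first was lost without WT embryo 1 (−0.39, adjusted p = 0.0670) and with the prefix as a covariate (−0.67, adjusted p = 0.0560), and the second without KO embryo 3 (−0.53, adjusted p = 0.0506). In the ventricular zone the gene did not pass, with 61.8, 52.6 and 71.7 CPM in WT radial glia and 57.3, 44.9 and 47.6 CPM in KO (−0.24, adjusted p = 0.290). Intermediate progenitors had a change of 0.02 ± 0.09 in KO (adjusted p = 0.917).

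Nrg3 fell in CGE interneurons. It was at 31.2, 45.3 and 21.2 CPM in WT, at 35.02, 32.7, 35.8 and 27.7 CPM in Het, and at 19.1, 12.3 and 14.1 CPM in KO. The KO embryos lay below all others, on 17 to 35 UMIs each. The log2 fold change was −1.03 ± 0.24 against WT (adjusted p = 0.0109), where 6.92% of genes were called, and −1.15 ± 0.20 against Het within GA422 (adjusted p = 0.000544), where 1.08% were called. The second was called in all 15 alternatives. The first was lost without WT embryo 2 (−0.71, adjusted p = 0.0936), KO embryo 2 (−0.92, 0.0665) or KO embryo 3 (−0.96, 0.0566), and with the prefix as a covariate (−1.35, 0.0780). MGE interneurons had 24.5, 31.3 and 31.1 CPM in WT and 25.8, 22.4 and 26.3 CPM in KO (−0.21, adjusted p = 0.293). The difference between the 2 interneuron classes was −0.82 ± 0.27 and did not pass (adjusted p = 0.328), so the fall is not shown to differ between them.

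In Cajal-Retzius neurons Nrg3 was at 45.7, 36.6 and 45.3 CPM in WT, at 36.3, 31.5, 38.2 and 34.0 CPM in Het, and at 28.7, 28.9 and 28.4 CPM in KO. KO lay below all others, with a log2 fold change of −0.54 ± 0.15 (adjusted p = 0.0416). This call was near the threshold and was lost without WT embryo 1 (−0.49, adjusted p = 0.134), WT embryo 3 (−0.49, 0.146), KO embryo 1 (−0.56, 0.0770), 2 (−0.54, 0.103) or 3 (−0.53, 0.111), and with the prefix as a covariate (−0.59, 0.384). Layer V-VI neurons, which had the most Nrg3 among named classes, showed a change of −0.0036 ± 0.064 in KO (adjusted p = 0.974). Nrg2 had 1 call. In migrating excitatory neurons it was at 10.58, 11.64 and 10.65 CPM in WT, at 8.49, 9.61, 10.2 and 8.02 CPM in Het, and at 6.40, 8.62 and 6.96 CPM in KO (−0.53 ± 0.14, adjusted p = 0.0102), and the call was lost without KO embryo 1 (−0.45, adjusted p = 0.0576) and with the prefix as a covariate (−0.75, adjusted p = 0.0699).

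**Figure D4:**
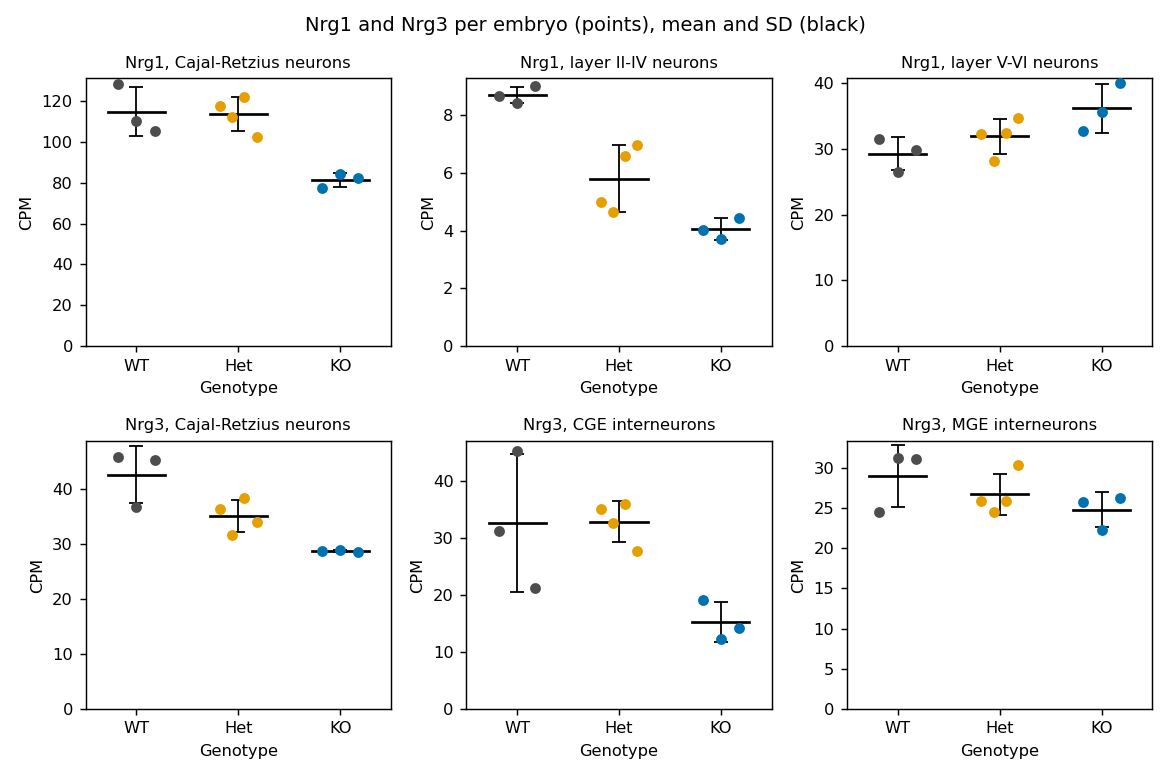
Nrg1 (top) and Nrg3 (bottom), in CPM with axes from 0, by genotype in the classes named above each panel. Points are embryos, and the black line and bars are the mean and SD. Nrg1 in layer II-IV neurons is at 8.44 to 9.02 CPM in WT and 3.70 to 4.46 CPM in KO, and Nrg3 in CGE interneurons at 12.3 to 19.1 CPM in KO.

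**Figure D5:**
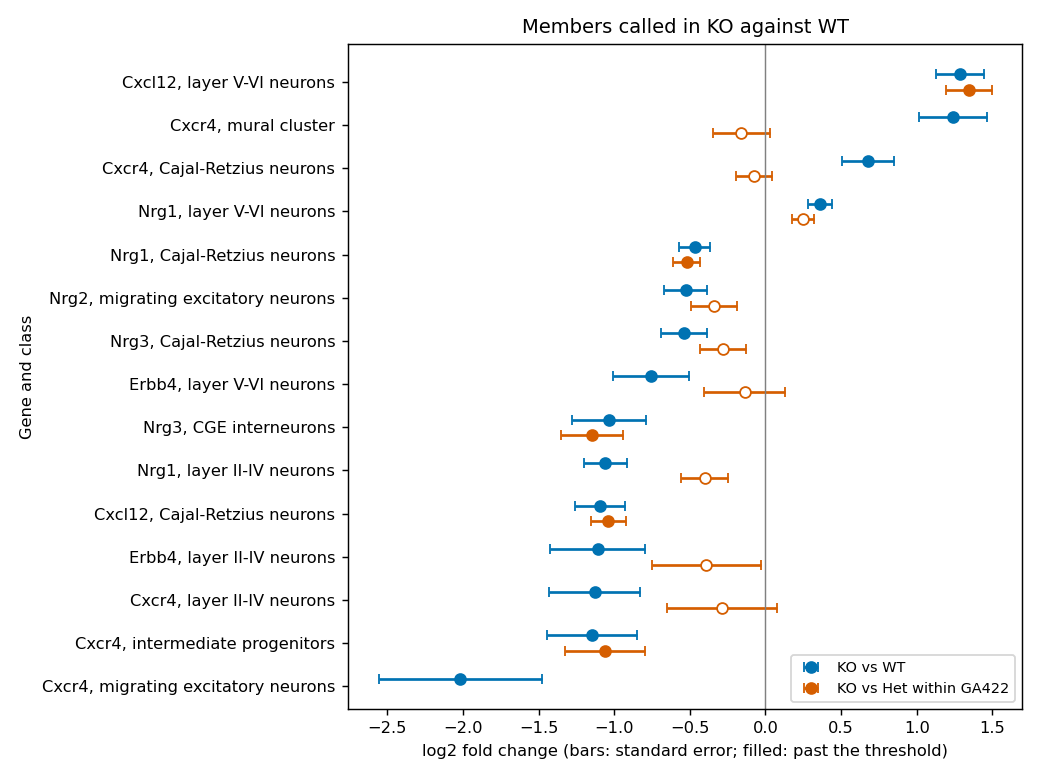
Log2 fold changes with SE of the 15 pairs of gene and class called in KO against WT, with KO against Het within the libraries of prefix GA422 below each where it was tested. Filled points passed the threshold. Cxcl12 in Cajal-Retzius and in layer V-VI neurons and Nrg3 in CGE interneurons are filled in both comparisons, and Cxcr4 in Cajal-Retzius neurons and the mural cluster is near 0 in the second.

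Of 16 partners of CXCL12 signaling, 15 were in the matrices. They gave 31 calls in 143 tests within classes in KO against WT, 16 higher and 15 lower (21.7%), 2 of 143 in Het (1.399%) and 6 of 138 in KO against Het (4.35%). Mif, a cytokine that also binds CXCR4, rose in 7 classes, by 0.31 to 1.18. In radial glia Mif rose by 1.18 ± 0.08 (adjusted p = 1.6e-07), and by 0.62 ± 0.07 against Het within GA422 (adjusted p = 0.000109). Within GA422 Mif was called in 2 of these 7 classes, the other being migrating excitatory neurons (0.29, adjusted p = 0.000514). Grk3, a kinase that turns off such receptors, fell in 5 classes, CGE interneurons (−1.44, adjusted p = 0.00144) and MGE interneurons (−0.51, adjusted p = 0.0186) included. Within GA422 Grk3 was called in 1 class, higher in layer V-VI neurons (0.28, adjusted p = 0.00736), and was not called in CGE (−0.74, adjusted p = 0.374) or MGE interneurons (−0.25, adjusted p = 0.604). Gnb1, a G protein subunit, rose in 5 classes, among them MGE (0.32) and CGE (0.31) interneurons. Arrb1, an arrestin, fell in 3 classes, by 0.73 in CGE interneurons (log2 fold change −0.73). Within GA422 neither was called in any class (Gnb1 0.05 in MGE, adjusted p = 0.922, and 0.15 in CGE interneurons, adjusted p = 0.534, and Arrb1 −0.35 in CGE interneurons, adjusted p = 0.731). Ptk2b, a tyrosine kinase downstream of CXCR4, fell in layer II-IV (−2.76, adjusted p = 0.000554) and layer V-VI neurons (−2.75, adjusted p = 9.24e-07), the latter also against Het within GA422 (−2.36, adjusted p = 3.87e-05). Of the remaining calls in KO against WT, Cxcl14 fell in 2 classes, Gnai1 rose in 1 and fell in 2, and Gnai2 rose in 3 and fell in 1. Cxcl14 and Gnai2 were not called within GA422. In Het, Mif rose and Grk3 fell in 1 class each, and in KO against Het Gng2 rose and Gnai1 fell in 1 class each.

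The 26 partners of neuregulin signaling gave 24 calls in 242 tests in KO against WT, 13 higher and 11 lower (9.92%), 4 of 242 in Het (1.65%) and 8 of 230 in KO against Het (3.48%). Egfr, the sister receptor of ErbB4, fell in 3 progenitor classes. In radial glia Egfr changed by −2.45 ± 0.27 (adjusted p = 1.23e-05), and by −2.25 ± 0.23 against Het within GA422 (adjusted p = 7.36e-05). In this class the 7 glial progenitor markers summed to 578 to 713 CPM in WT, 294 to 703 CPM in Het and 261 to 292 CPM in KO, and the 11 radial glia markers to 14855 to 16468 CPM in WT and 10586 to 12959 CPM in KO. Their part was not tested. In progenitors of the ganglionic eminences the change in Egfr was −1.995, and −1.57 against Het within GA422 (adjusted p = 0.00378). In intermediate progenitors it was −3.21, and Egfr had too few counts there to test within GA422. Gab1, a docking protein of receptor kinases, rose in 4 classes, by 0.95 ± 0.14 in layer V-VI neurons (adjusted p = 0.000116) and by 0.90 ± 0.07 in layer II-IV neurons (adjusted p = 2.38e-07). Erbin, a scaffold that binds ERBB2, rose in layer II-IV neurons by 1.02 ± 0.10 in KO (adjusted p = 2.47e-06) and by 0.35 ± 0.10 in Het (adjusted p = 0.0427), and in radial glia by 0.37 in KO (adjusted p = 0.0226). The other calls in KO against WT were higher for Rnf41 and Pik3r1 in 2 classes each and for Adam10, Ncstn and Yap1 in 1 each, and lower for Dlg4 and Lrig1 in 2 each and for Adam19, Itch, Nedd4 and Pik3r1 in 1 each. In Het, Adam10 and Gab1 rose and Dlg4 fell in 1 class each, and in KO against Het Lrig1, Pik3r1 and Tab2 fell in 1 class each. Adam10, Adam19, Dlg4, Itch, Ncstn, Nedd4, Rnf41 and Yap1 were not called within GA422. The share of calls in the CXCL12 list was above that of all gene tests in KO (14.3%) and the share in the neuregulin list below it, which describes the lists and is not a test.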

How the data were processed

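The authors deposited UMI counts per gene and cell barcode for each embryo, raw and without normalization, after alignment to mm10 (the file headers and the submitters' processing notes name Cell Ranger 6.0.2). The cell filters were 1000 UMIs as a minimum and 10% mitochondrial UMIs as a maximum. Counts were log-normalized, embryos were integrated by reciprocal PCA (Seurat 5.3.0, 2000 variable genes, 30 components, resolution 0.4) without the 7 genes, their partners, Gatad2b and sex-linked, globin and ribosomal RNA genes, and clusters were named from marker lists. A cluster needed a mean marker z-score of at least 0.5 with at least 3 markers in at least 10% of its cells. The rules that leave a cluster unnamed were revised after the clusters were seen. Doublets scored in scanpy 1.11.5 (4333 cells) were kept and removed in an alternative.

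UMIs were summed per embryo and class, and a class was tested where no embryo had fewer than 20 cells. One fit per class took all 10 embryos (edgeR 4.0.16, limma 3.58.1, R 4.3.3) with filterByExpr, TMM and quasi-likelihood tests. It had no covariates, and p-values were adjusted by Benjamini and Hochberg over all genes tested in a class. KO against Het used the 6 libraries of prefix GA422. CPM are UMIs per 1000000 UMIs of the embryo and class. Shares of cells were compared by two-sided exact permutation tests (Python 3.11.15, scipy 1.17.1), with 84 tests in a family. Whether a change differed between 2 classes of the same embryos was tested for 4 pairs of classes, a choice made after the data were seen, as was the test of endothelial cells clustered without integration. Both kinds of fit were tested on simulated data. Same-numbered embryos did not deviate together (correlations from −0.19 to 0.13 over genes, beside −0.090 to 0.145 for other pairs). Embryos were therefore not paired by number, though such correlations cannot exclude shared litters or handling. UMIs are given beside some of the low values. All 7 members are named in every class where a test was called, partners where called, and 3 like genes per member. The members, lists and classes were chosen with earlier results of these data known.

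Alternatives were DESeq2 1.42.0, its size factors in edgeR, the prefix as a covariate, a block for the replicate number, low counts left in, only 2 genotypes in the fit, doublets removed, at least 3000 UMIs, at most 5% mitochondrial UMIs, no integration, resolution 0.8, equal weight for each class, and each embryo left out.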

Additional observations from a re-analysis of the deposited data

Results flagged for a closer look

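Of 73 sets of 4 Het embryos, 5 held 1 embryo far from the other 3, where chance gives about 1 in 20. Het embryo 4 was apart in MGE interneurons for Cxcr4 (38.3 CPM, the others 61.6 to 66.4 CPM) and for Nrg1 (6.94 CPM, the others 4.48 to 4.83 CPM). It is the Het embryo whose library shares the prefix of the WT libraries. Het embryo 2 was apart for Cxcl12 in intermediate progenitors (32.2 CPM, the others 58.1 to 60.8 CPM), for Ackr3 in progenitors of the ganglionic eminences (15.6 CPM, the others 12.8 to 13.1 CPM) and for Nrg2 in striatal inhibitory neurons (17.9 CPM, the others 15.9 to 16.1 CPM).

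Of 52 tests of whether a genotype change of a member differed between 2 classes of the same embryos, 10 passed. The share of all genes that passed is not given beside it, so the count is not read as a result about the members. Compared with Cajal-Retzius neurons, the KO change in layer V-VI neurons was higher for Cxcl12 (2.38 on the log2 scale), Nrg1 (0.86) and Nrg3 (0.56, adjusted p = 0.0362) and lower for Cxcr4 (−1.47, adjusted p = 0.0387). Compared with the same neurons, it was higher in intermediate progenitors for Cxcl12 (1.31, adjusted p = 0.00515) and Nrg1 (0.50, adjusted p = 0.0159) and lower for Cxcr4 (−1.81). Compared with layer II-IV neurons, it was higher in layer V-VI neurons for Cxcl12 (1.48, adjusted p = 0.000103) and Nrg1 (1.41), and the Het change was higher for Nrg1 (0.70). These p-values are from edgeR's quasi-likelihood test. The fits had no prefix term, and the differences in Cxcr4 include the change in Cajal-Retzius neurons that followed the prefix.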

How the results depend on the processing

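Of the values of called pairs of gene and class under alternatives, 363 stayed called in the same direction, 67 lost the call and 1 was reversed, Cxcr4 in Cajal-Retzius neurons of KO with the prefix as a covariate (−0.022, not called). That covariate rests on Het embryo 4 alone to separate prefix from genotype. Within classes it gave 6 calls in KO against WT, where there had been 15. Of those 15, 11 lost the call, and Erbb4 gained it in CGE interneurons (−0.55, adjusted p = 0.0213) and migrating excitatory neurons (−2.23, adjusted p = 0.00555). It gave 2 calls over all cells (Cxcr4 and Cxcl12, both lower), where there had been 0. Leaving out 1 embryo gave 9 to 17 calls within classes in KO against WT (9 without KO embryo 2), 0 to 6 in Het against WT (0 without WT embryo 1, WT embryo 3 or Het embryo 1, 2 without Het embryo 2 and 6 without Het embryo 4), 0 to 1 over all cells in Het (1 without Het embryo 4) and in KO (1 without WT embryo 3 or KO embryo 3), and 1 to 2 over all cells in KO against Het (1 without Het embryo 2, Het embryo 3 or KO embryo 3). Within classes in Het, no filter on low counts gave 6 calls, no integration 2 and resolution 0.8 gave 3, beside 1. At most 5% mitochondrial UMIs gave 1 call over all cells in KO.

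Of the values of pairs not called, 77 passed under an alternative. With a replicate block, where same-numbered embryos were treated as paired, calls over all cells were 1 in Het and 1 in KO, and calls within classes were 6 in Het and 18 in KO. The numbers are not shown to mark litters, and the same-numbered embryos did not deviate together, so the block is not read further. Levels of a few CPM limit calls on Cxcr4 and Erbb4 in excitatory classes, and few cells and UMIs per embryo limit those on Cxcr4 in the mural cluster (16 to 63 UMIs) and Nrg3 in CGE interneurons (17 to 87 UMIs). The cause of the lost calls was not tested.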

Other observations

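Unnamed clusters held members too, and no test was made on them. Cluster 14, with a median of 1523 UMIs per cell, had the highest Nrg3 of all clusters in WT, at 145 to 195 CPM. Het embryos had 76.2 to 162 CPM and KO embryos 39.0 to 125 CPM there, on 33 cells in the smallest KO embryo. Cluster 20, led by Tesc, Tac2 and Prox1, had Cxcr4 at 29.8 to 55.4 CPM in WT, 35.4 to 56.1 CPM in Het and 43.3 to 57.7 CPM in KO, which overlapped. Its Ackr3 was at 0.806 to 1.76 CPM in WT. Cluster 7, led by Crym and Grp, had Cxcr4 at 10.6 to 15.1 CPM in WT, 8.97 to 14.5 CPM in Het and 5.88 to 7.68 CPM in KO. There the KO embryos lay below all others.

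Ackr3 in progenitors of the ganglionic eminences and Erbb4 and Ackr3 in radial glia did not pass in either genotype. In progenitors of the ganglionic eminences Ackr3 was at 8.85, 11.4 and 5.02 CPM in WT, at 12.8, 15.6, 13.1 and 12.9 CPM in Het, and at 10.3, 17.1 and 14.0 CPM in KO. All Het embryos were above the WT range, with a log2 fold change of 0.66 ± 0.24 (adjusted p = 0.304), and KO had 0.69 ± 0.25 (adjusted p = 0.118). Ackr3 in KO passed there with low counts left in (0.70, adjusted p = 0.0397), without integration (0.85, 0.0430) and at resolution 0.8 (0.73, 0.0243). In radial glia Erbb4 was at 9.89, 18.7 and 23.9 CPM in WT, at 6.47, 12.9, 12.1 and 14.4 CPM in Het, and at 6.52, 7.28 and 14.0 CPM in KO, which overlapped (−0.88 ± 0.31 in KO, adjusted p = 0.0555, edgeR's quasi-likelihood test). It passed without WT embryo 1 (−1.11, adjusted p = 0.0190), Het embryo 1 (−0.88, 0.0382), Het embryo 4 (−0.88, 0.0419) or KO embryo 3 (−1.33, 0.0172). Ackr3 in radial glia changed by −0.80 ± 0.32 in KO (adjusted p = 0.0905) and passed without KO embryo 3 (−1.22, adjusted p = 0.0355). The MGE interneuron markers in radial glia summed to 313 to 357 CPM in WT and 236 to 282 CPM in KO, and the glial progenitor markers to 578 to 713 CPM and 261 to 292 CPM. Their part was not tested.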
